A study of Mus musculus with 20 samples.

Results

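The effect of a dominant-negative HDAC4/5 vector on the transcripts of a fast muscle of the lower leg, the extensor digitorum longus (EDL), was measured here in mice that also received the HDAC inhibitor Scriptaid. In each of 5 animals the EDL of the dnHDAC4/5 leg was set against the EDL of the other leg, which had received an empty vector, giving 10 of the 20 arrays of the series. The 10 arrays were chosen by their labelled vector and injection and not by any measured value. The labels describe male C57Bl6 mice, 8 weeks old. Serotype 6 adeno-associated virus (rAAV6) was injected in 30 µL into the front and back compartments of the lower hindlimb. The right leg of every animal received vectors carrying D832N HDAC4 and D861N HDAC5, at 2.5e+10 vector genomes of each mutant, and the left leg received vector with no insert. After 4 weeks the animals of this comparison received Scriptaid intraperitoneally. The other 5 animals, with the same vectors in the same legs, received vehicle (5% DMSO in PBS). They are used below to show where the Scriptaid animals differed. They also enter the estimate of spread behind the p-values of the Scriptaid animals. The titles of the empty-vector Scriptaid arrays read as vehicle, whereas their treatment entry, description and animal numbers give Scriptaid, and these 3 fields were followed.

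Class IIa histone deacetylases, HDAC4 and HDAC5 among them, are carried to muscle promoters by transcription factors of the MEF2 family and hold their target genes at a low level. Calcium-dependent kinases and protein kinases of the AMPK group phosphorylate them, after which they leave the nucleus, a step that muscle activity and exercise engage. In denervated muscle, HDAC4 is known for its part in the induction of acetylcholine receptor genes through the myogenin pathway. Scriptaid is a hydroxamic acid that inhibits histone deacetylases, so all 10 muscles described here had been exposed to an inhibitor and the legs differed only in the vector, the side of the body and the place on the slide.

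Several features limit the comparison. The labels name neither the promoter that drives the mutant HDACs nor the dose of Scriptaid or the time between its injection and tissue collection. Side and vector coincide in every animal. Every slide held 1 array of each group, always in the same position, so that position and vector cannot be told apart. Of 8 defining fast-fibre markers 7 were measured, and 6 stood well above background on all 10 arrays. Of 6 defining slow-fibre markers 4 were measured, and 3 stood above background on all 10, so presence alone does not tell the EDL from another muscle. In such counts a spot left out as an outlier counts as not above background, so a missing array need not mean a dim marker.

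The arrays of the legs overlapped in overall signal but differed in spot quality. The 75th percentile of the processed signal lay between 248 and 543 units on the dnHDAC4/5 arrays and between 372 and 608 units on the empty-vector arrays. The share of spots well above background ran between 52% and 61.3% in the dnHDAC4/5 legs, and between 54.3% and 60.1% in the empty-vector legs. Over the interior of the array this share averaged 57.7% ± 3.55 in the dnHDAC4/5 legs and 57.2% ± 2.35 in the empty-vector legs (SD, n = 5 each; two-sided exact sign-flip permutation test, p = 0.9375, with 0.0625 the smallest p that 5 pairs allow). In the edge zone, 2.12% to 3.52% of spots on the dnHDAC4/5 arrays read more than 3 log2 units under the median of all arrays, against 0.0385% to 0.366% on the empty-vector arrays. The interior held 0.0524% to 0.254% such spots on the dnHDAC4/5 arrays and 0.0105% to 0.0786% on the empty-vector arrays. Spots marked as outliers numbered 657 to 1342 on the dnHDAC4/5 arrays and 375 to 560 on the empty-vector arrays, with no overlap, and their part in the results was not tested beyond a fit that kept them. Edge spots were left out, and 14591 genes were tested. Values below are log2 of the processed signal relative to the 75th percentile of the same array, and a leg difference is the dnHDAC4/5 leg minus the empty-vector leg of the same animal. The labels give separate animals as replicates, so the p-values measure the spread between animals. The small number of arrays limits the precision.

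At the level of all genes, a single gene passed the test. Pla2g5, which encodes a secreted phospholipase A2, was the 1 gene of 14591 (0.00685%) with an adjusted p under 0.05 (limma on the leg differences, Benjamini-Hochberg adjustment). At an adjusted p under 0.1 there were 49 genes, of which 29 were higher and 20 lower in the dnHDAC4/5 legs. At an unadjusted p under 0.05 there were 2105 genes (14.4%), with 1231 higher (8.44%) and 874 lower (5.99%). Higher genes made up 58.5% of those 2105, a share that was 70.6% with another background correction (normexp) and 35.7% with the authors' processed value table, so the balance between higher and lower genes is not given as a result. Among the 13379 genes measured in both legs of all 5 animals, 1312 were higher in every dnHDAC4/5 leg (9.81%) and 835 were lower in every one (6.24%). For 191 of them (1.43%) every dnHDAC4/5 leg lay above every empty-vector leg, and for 97 (0.725%) below.

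No gene passed the same test in the vehicle animals, and 1277 genes (8.75%) had an unadjusted p under 0.05 in limma, 584 higher (4%) and 693 lower (4.75%). In all 5 vehicle animals 478 of 13693 genes were higher (3.49%) and 793 lower (5.79%). The animals of both injections share no array but share slides. Across all genes their mean leg differences correlated with r = 0.26 (Spearman's rho 0.27), a description over genes that are not independent. Of the 2105 genes with an unadjusted p under 0.05 in the Scriptaid animals, 1613 (76.6%) had the same sign in the vehicle animals, against 60.7% of all genes. An unadjusted p under 0.05 in both injections was reached by 429 genes in the same direction and by 18 genes in opposite directions. Both injections share the estimate of the spread of a gene, so its p-values in the injections are not independent.

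**Figure D1:**
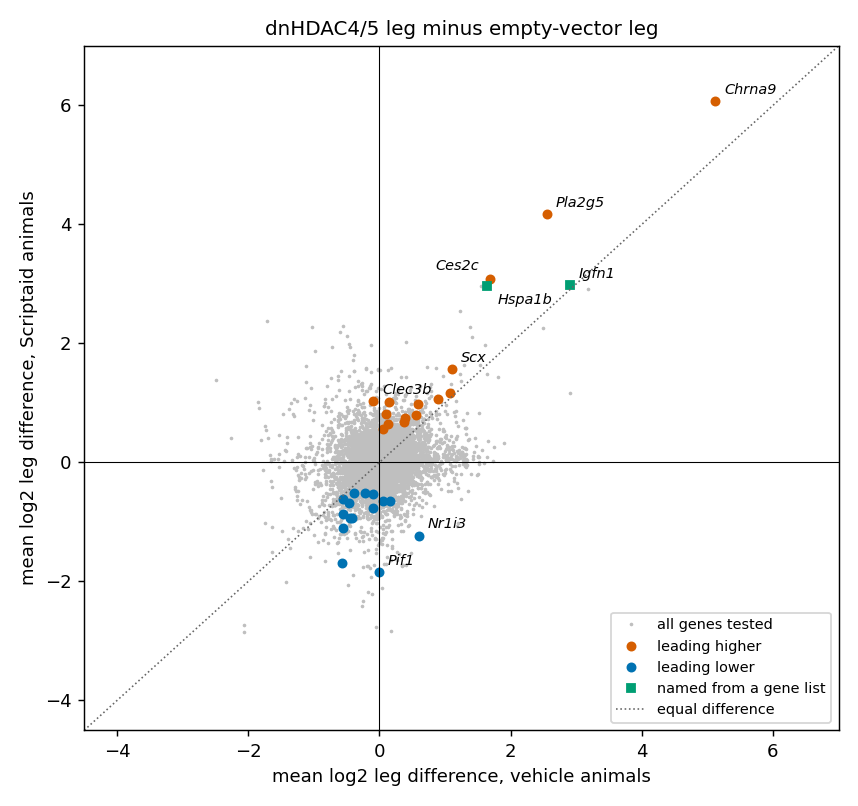
Each point is a gene, with its mean log2 leg difference in the Scriptaid animals on the vertical axis and in the vehicle animals on the horizontal axis (n = 5 animals each). Chrna9, Pla2g5, Ces2c, Hspa1b and Igfn1 stand apart at the upper right, and Nr1i3 lies at -1.23 on the vertical axis and 0.60 on the horizontal one.

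Pla2g5 rose in the dnHDAC4/5 legs. The enzyme releases fatty acids and lysophospholipids from phospholipids outside the cell. Its level was 2.01, 2.06, 0.54, 3.92 and 2.49 in the dnHDAC4/5 legs of Scriptaid animals 1 to 5, against -1.91, -1.95, -3.02, -1.36 and -1.59 in their empty-vector legs. All 10 spots were well above background and the groups did not overlap, with the lowest value of each group in animal 3 and the highest in animal 4. The mean leg difference was 4.17 ± 0.39 (SE, n = 5), an 18.0-fold higher signal, with a limma adjusted p of 0.00964. The call was lost when animal 1, 4 or 5 was left out (adjusted p 0.0766, 0.0665 and 0.0825), although the difference stayed between 3.89 and 4.32 under the removal of any 1 Scriptaid animal. The vehicle animals had a leg difference of 2.55, with values between 1.3 and 4.4, and the difference between the injections was 1.62 ± 0.55 (SE; unadjusted p 0.0139, adjusted p 0.907).

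Promoter windows of Pla2g5 and of genes with the largest leg differences of the nicotinic receptor and chaperone lists are shown for reference. They are the 250 bases before the annotated transcript start, from RefSeq on GRCm38.p6, written 5′ to 3′ on the gene's strand. Capitals mark 2 kinds of match. The first is the core of the heat shock element, to which the heat shock factor HSF1 binds, searched as GAANNTTC and TTCNNGAA. The second is the E-box CAGCTG, a site type used by myogenic factors such as myogenin. Both strands were searched. The MEF2 consensus was searched too and matched none of the windows shown. Pla2g5 has 2 annotated starts, and the second window carries a heat shock core 151 bases before its start.
Pla2g5, chr4:138863470-138863719, minus strand: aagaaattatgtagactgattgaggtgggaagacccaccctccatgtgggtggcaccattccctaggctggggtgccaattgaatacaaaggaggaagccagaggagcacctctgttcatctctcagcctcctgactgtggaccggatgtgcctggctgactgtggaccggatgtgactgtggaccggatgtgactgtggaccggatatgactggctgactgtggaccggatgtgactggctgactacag
Pla2g5, chr4:138819258-138819507, minus strand: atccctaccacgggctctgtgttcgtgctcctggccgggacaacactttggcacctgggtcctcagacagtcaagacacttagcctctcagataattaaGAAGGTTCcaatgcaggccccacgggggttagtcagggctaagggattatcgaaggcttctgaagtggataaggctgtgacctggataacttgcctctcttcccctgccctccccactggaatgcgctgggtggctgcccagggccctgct

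The acetylcholine receptor subunits Chrna9, Chrng and Chrna1 are shown because they had the largest leg differences of the nicotinic receptor list. Their windows each hold the E-box, at 13 bases before the start in Chrna9, at 155 and 132 in Chrng and at 92 and 44 in Chrna1.
Chrna9, chr5:65966874-65967123, plus strand: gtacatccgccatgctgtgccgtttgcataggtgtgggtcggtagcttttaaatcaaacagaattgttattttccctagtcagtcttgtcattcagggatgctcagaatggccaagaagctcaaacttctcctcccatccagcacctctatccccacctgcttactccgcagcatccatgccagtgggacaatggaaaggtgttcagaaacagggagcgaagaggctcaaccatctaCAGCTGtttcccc
Chrng, chr1:87205561-87205810, plus strand: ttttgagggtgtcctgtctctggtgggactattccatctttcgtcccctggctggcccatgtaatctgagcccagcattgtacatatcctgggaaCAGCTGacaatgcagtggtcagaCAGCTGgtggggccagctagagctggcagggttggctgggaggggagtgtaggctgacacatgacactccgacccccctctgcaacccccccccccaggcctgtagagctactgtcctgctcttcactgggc
Chrna1, chr2:73580339-73580588, minus strand: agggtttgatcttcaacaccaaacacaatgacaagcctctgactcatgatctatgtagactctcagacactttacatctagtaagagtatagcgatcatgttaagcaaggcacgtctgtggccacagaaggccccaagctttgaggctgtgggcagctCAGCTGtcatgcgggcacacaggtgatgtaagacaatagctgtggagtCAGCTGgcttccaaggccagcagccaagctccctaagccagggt
This E-box was present in 13% of all 32851 promoter windows of that length, and in 5 of the 13 windows of the nicotinic receptor list (38.5%). One of these is the window of Chrne, the adult epsilon subunit, whose leg difference was -0.47 ± 0.29. A match of these letters is a description of the window and not evidence of binding.

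The inducible Hsp70 genes Hspa1b and Hspa1a are shown because they had the largest differences of the chaperone list, and both windows carry a heat shock core 104 bases before the start.
Hspa1b, chr17:34959239-34959488, minus strand: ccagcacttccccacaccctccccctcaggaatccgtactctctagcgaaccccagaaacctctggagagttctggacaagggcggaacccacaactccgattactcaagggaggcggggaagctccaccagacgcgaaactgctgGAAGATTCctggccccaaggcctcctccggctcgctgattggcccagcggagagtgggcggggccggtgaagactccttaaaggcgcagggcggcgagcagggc
Hspa1a, chr17:34972157-34972406, minus strand: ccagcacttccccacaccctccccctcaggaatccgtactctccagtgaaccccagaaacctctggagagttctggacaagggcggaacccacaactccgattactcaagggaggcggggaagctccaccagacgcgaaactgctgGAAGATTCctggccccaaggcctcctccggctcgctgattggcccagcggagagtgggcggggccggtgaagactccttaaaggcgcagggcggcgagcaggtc
A core of either form was found in 12.8% of all windows and in 11 of the 27 windows of the chaperone list (40.7%).

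The 15 leading higher genes, taken by p among genes higher in all 5 Scriptaid animals, had leg differences between 0.57 and 6.07, the highest being that of Chrna9, and adjusted p between 0.00964 and 0.0829. For 13 of the 15 the dnHDAC4/5 and empty-vector groups did not overlap, against 1.43% of all genes. The choice by p fixes their direction in these animals and favours groups without overlap, so neither is a result. The vehicle means were not used in the choice, but the p behind it rests on a spread estimated over both injections. The choice therefore also favours a small vehicle p. In the vehicle animals 14 of the 15 had a positive mean difference. Of these, 10 had an unadjusted p under 0.05 in limma, against 4% of all genes higher at that threshold. Scriptaid animal 3 had the smallest difference for 8 of the 15 genes and animal 4 the largest for 7. Among the vehicle animals, animal 5 had the lowest difference for 9 of the 15 and animal 4 the highest for 10.

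**Figure D2:**
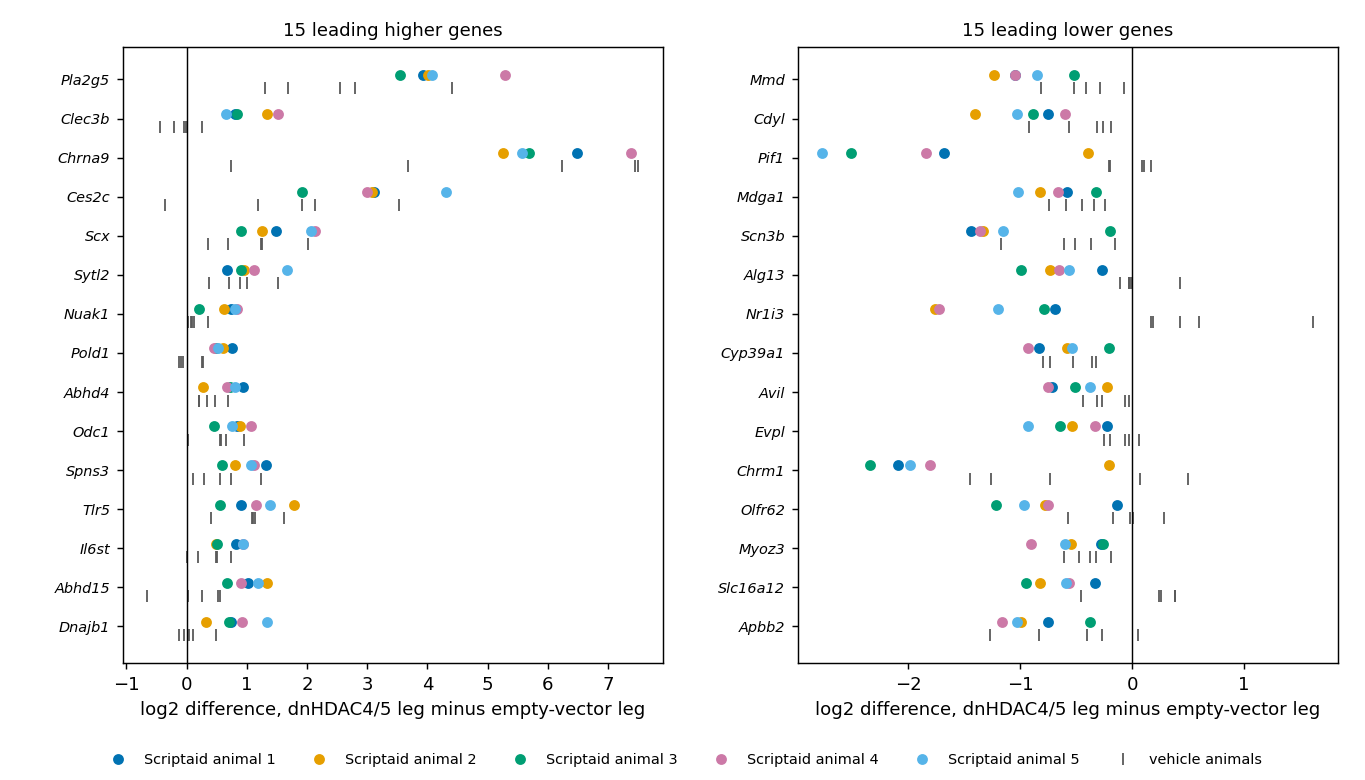
Log2 leg differences of the 15 leading higher genes and the 15 leading lower genes. Coloured points are the 5 Scriptaid animals and grey ticks the 5 vehicle animals; the Scriptaid points lie on 1 side of 0 by the rule that chose the genes, those of Pla2g5 lie between 3.55 and 5.28, and those of Chrna9 are set against empty-vector spots not well above background.

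Among receptor genes the largest difference was that of Chrna9, an acetylcholine receptor subunit best known from cochlear hair cells. Its level was 0.30, -0.94, -0.37, 2.24 and -0.33 in the dnHDAC4/5 legs, against -6.18, -6.20, -6.05, -5.13 and -5.90 in the empty-vector legs. None of the 5 empty-vector spots was well above background, so that only a bound can be given: the signal was at least 25.7-fold higher in the dnHDAC4/5 legs, set against the lowest signal measured above background (adjusted p 0.0694). In the vehicle animals 4 of the 5 dnHDAC4/5 spots were above background and none of the empty-vector spots, a difference of at least 11.6-fold. Without the pairing of legs, Chrna9, Ces2c and Pla2g5 each had an adjusted p of 0.046.

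The other muscle receptor genes had smaller differences. Chrng, the fetal gamma subunit that reappears in denervated fibres, had a leg difference of 1.00 ± 0.20 (SE; adjusted p 0.111), and its 2 probes disagreed, at 1.00 and -0.70. Chrna1, the alpha subunit of the muscle receptor, had 1.03 ± 0.37 and was higher in 4 of 5 animals (adjusted p 0.256). Musk, the kinase that gathers receptors at the synapse, had 1.02 ± 0.31, and Gadd45a, a stress gene induced in denervated muscle, had 1.21 ± 0.33. Of 20 measured genes on the list of neuromuscular junction and denervation genes, 5 were higher and 0 lower at an unadjusted p under 0.05, against 8.44% and 5.99% of all genes, and none passed after adjustment. By sign 11 of the 20 were higher (55%), against 55.6% of all genes. The median of that list was 0.06, against 0.03 for all genes, and it changed sign under other settings. The list median in the vehicle animals was 0.10, with 5 members higher and 5 lower at the same threshold.

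**Figure D3:**
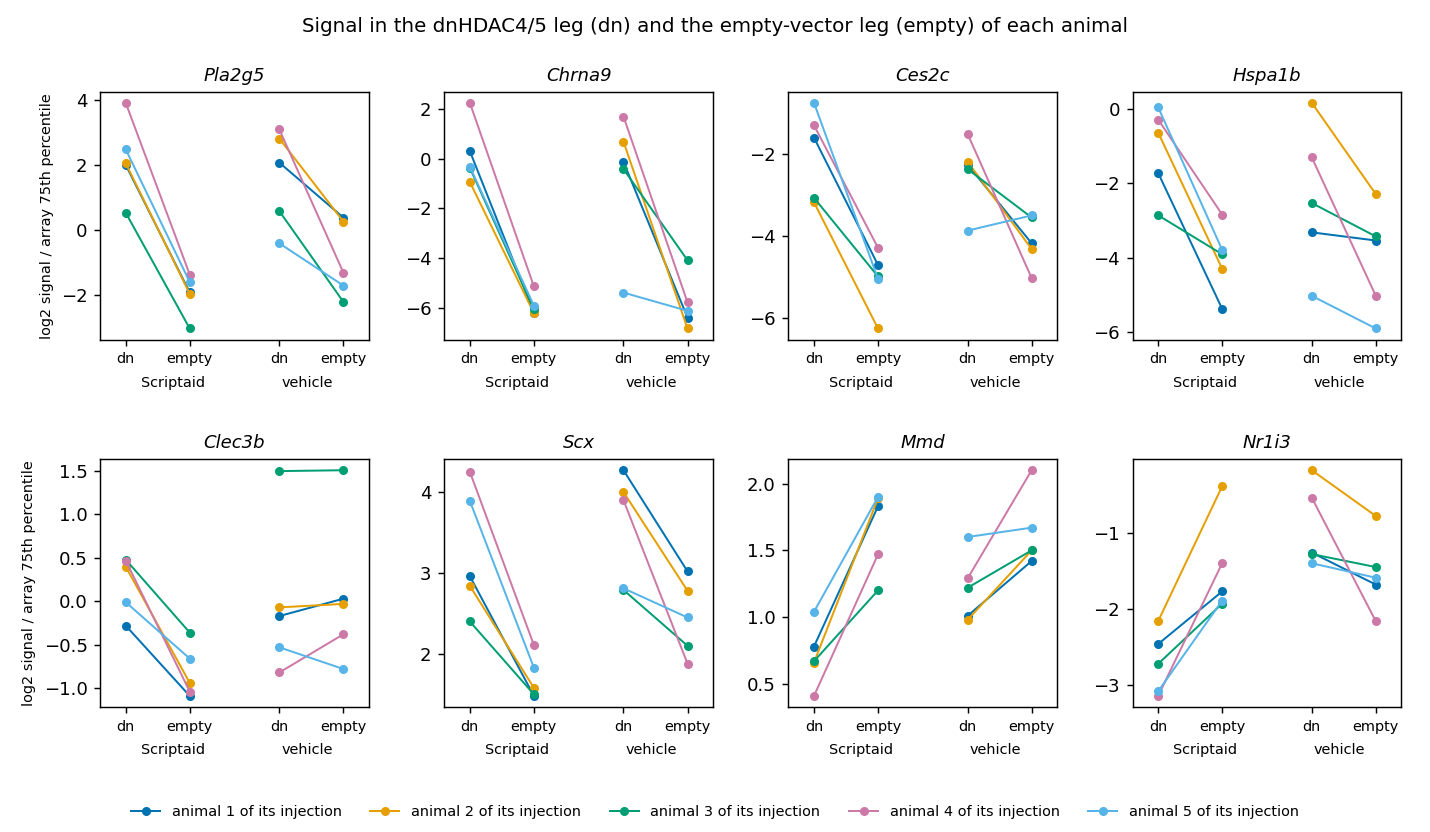
Log2 signal relative to the array's 75th percentile for 8 genes, with the dnHDAC4/5 leg (dn) on the left and the empty-vector leg (empty) on the right, joined by a line for each animal. The Scriptaid animals are in the left pair of columns and the vehicle animals in the right pair. Pla2g5 separates the legs in both injections, Clec3b differs between legs in the Scriptaid animals with values of 0.65 to 1.52, and Nr1i3 has opposite slopes in the injections.

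Among genes of ester and lipid hydrolysis, the largest difference after Pla2g5 was that of Ces2c. Ces2c, a carboxylesterase that cleaves ester bonds in drugs and lipids, had a level of -1.60, -3.18, -3.07, -1.30 and -0.75 in the dnHDAC4/5 legs, against -4.71, -6.26, -4.99, -4.29 and -5.05 in the empty-vector legs. The leg difference was 3.08 ± 0.47 (SE, n = 5; adjusted p 0.0694), and just 1 of the 5 empty-vector spots was well above background, so the size is uncertain on the low side. Ces2b, its neighbour in the same family, had 2.55 ± 0.54 with 3 of 5 empty-vector spots above background (adjusted p 0.119). The family members are similar in sequence, and a probe could respond to more than its own transcript. Of 18 carboxylesterases on the list 3 were measured, and all 3 were higher, against 55.6% of all genes. The remaining one, Ces1f, had 1.54 ± 1.01 in the Scriptaid animals and -0.39 in the vehicle animals. Abhd15, an alpha/beta hydrolase domain protein of adipocytes that takes part in the control of lipolysis, had 1.02 ± 0.17, and Abhd4, an enzyme of N-acyl phospholipid metabolism, had 0.68 ± 0.11 (adjusted p 0.0694 each).

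Adipocyte markers were examined beside these genes, and none of them passed after adjustment. Of 18 measured markers 16 had a positive leg difference, against 55.6% of all genes, and 5 were higher and none lower at an unadjusted p under 0.05, against 8.44% and 5.99% of all genes. One of the 5, Car3, was saturated on 14 of the 20 arrays. The list median was 0.45, with -0.06 in animal 4 and 1.39 in animal 5 as its lowest and highest values. The median in the vehicle animals was -0.02. The summed signal of 15 of these markers ranged between 116 and 275 with a median of 127 in the dnHDAC4/5 legs, and between 78.6 and 198 with a median of 96.4 in the empty-vector legs, in units of the array's 75th percentile. It was higher in the dnHDAC4/5 leg of 5 of 5 animals. Fabp4, a fatty acid carrier also made by endothelial cells, gave 33.1% to 89% of that sum. Without Fabp4, a sum computed after the data were seen, the median was 30.2 in the dnHDAC4/5 legs and 11.1 in the empty-vector legs, and the sum was higher in 4 of 5 animals. The ranges of that sum overlapped, at 14.2 to 184 in the dnHDAC4/5 legs and 8.77 to 102 in the empty-vector legs. All 4 defining markers were measured and 3 of them were above background on all 10 arrays. None of the 4 had an unadjusted p under 0.05. Their leg differences were 2.13 ± 1.14 for Cfd, 2.19 ± 1.20 for Cidec, 1.94 ± 1.20 for Adipoq and 1.93 ± 1.26 for Plin1. In whole muscle, more cells of a type and more RNA per cell cannot be told apart. The part of adipocyte RNA in the differences of Abhd15 and the other lipid genes was not tested.

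Chaperone genes were mostly higher in the dnHDAC4/5 legs. Of 21 measured heat shock chaperones 17 were higher, and at an unadjusted p under 0.05 there were 9 higher and 2 lower, against 8.44% and 5.99% of all genes. The list median was 0.18 in the Scriptaid animals and 0.10 in the vehicle animals. Hspa1b, an inducible Hsp70, had a level of -1.72, -0.63, -2.86, -0.28 and 0.05 in the dnHDAC4/5 legs, against -5.38, -4.30, -3.91, -2.84 and -3.79 in the empty-vector legs. The groups overlapped through animal 3 of the dnHDAC4/5 group and animal 4 of the empty-vector group. The leg difference was 2.96 ± 0.52 (adjusted p 0.0845), with 3 of 5 empty-vector spots above background. Its near-identical copy Hspa1a, whose transcript the probes may not separate, had 2.97 ± 0.58 (adjusted p 0.104). In the vehicle animals Hspa1b had 1.64 and Hspa1a 1.55, each higher in 5 of 5 animals. Dnajb1, the Hsp40 partner that delivers clients to Hsp70, had 0.81 ± 0.14 in the Scriptaid animals (adjusted p 0.0829) and 0.10 in the vehicle animals. The difference between injections, for a gene chosen by its Scriptaid p, had an adjusted p of 0.907. A dimmer probe of Dnajb1 had a leg difference of 0.27 in the Scriptaid animals. The 2 lower members were Hspb3, a small heat shock protein of muscle, at -0.61 ± 0.19, and Dnajb5, at -0.55 ± 0.17.

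No member of the p53, immediate early, endoplasmic reticulum stress and ribosomal protein lists passed after adjustment, and the counts that follow stand against 8.44% of all genes higher and 5.99% lower at an unadjusted p under 0.05. Among p53 targets 9 of 21 were higher and 1 was lower at that threshold, with a median of 0.24, against 0.03 in the vehicle animals. They included Bbc3, the cell death gene also called Puma, at 0.49 ± 0.09, Plk3, a stress kinase, at 1.11 ± 0.27, and Bax at 0.33 ± 0.09. Polk, a DNA polymerase for damaged templates, was lower by -0.51 ± 0.12. Among immediate early genes 7 of 21 were higher and none lower at that threshold, with a median of 0.33 and with 0.06 in the vehicle animals. Myc, a driver of growth, had 0.93 ± 0.17 (adjusted p 0.0845), with leg differences of 0.80, 0.55, 0.64, 1.34 and 1.31 in animals 1 to 5. Its mean leg difference in the vehicle animals was 0.70, and it was higher in 5 of 5 of them. Among endoplasmic reticulum stress genes 7 of 18 were higher and 1 lower, with a median of 0.14, against 0.05 in the vehicle animals, led by the secreted folding factor Manf at 0.63 ± 0.15. Ribosomal protein genes had 7 of 23 higher and none lower, with a median of 0.19, and it was 0.16 in the vehicle animals.

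**Figure D4:**
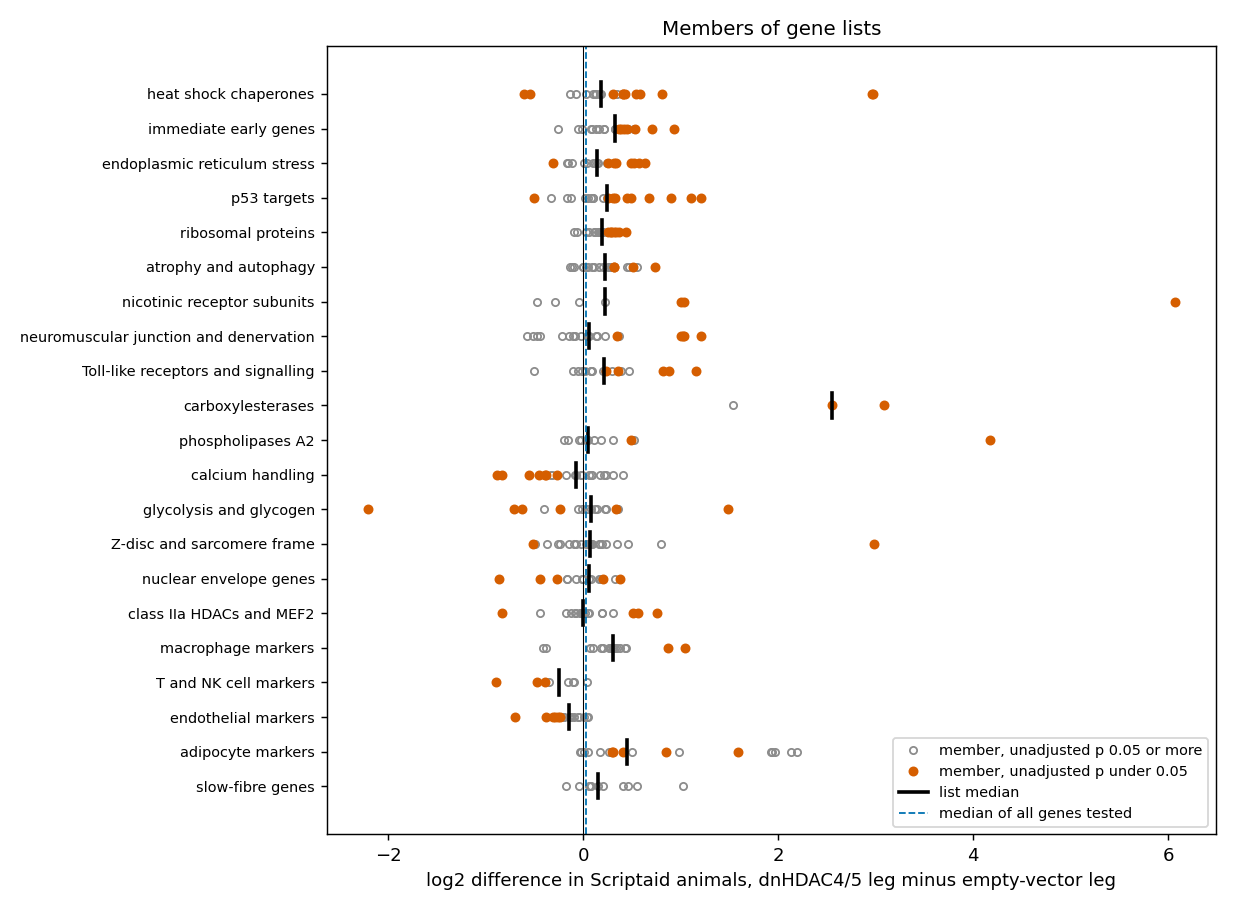
Log2 leg differences of the measured members of 21 gene lists in the Scriptaid animals. Filled points are members with an unadjusted p under 0.05, black bars list medians, and the dashed line the median of all genes tested, 0.03; most filled chaperone, immediate early and p53 members lie to the right, and the 7 filled calcium handling members lie to the left.

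Several leading genes act in growth and signalling. Odc1, which makes the polyamine putrescine, had a level of 6.26, 6.4, 5.8, 6.23 and 6.51 in the dnHDAC4/5 legs, against 5.43, 5.51, 5.34, 5.16 and 5.75 in the empty-vector legs, a leg difference of 0.80 ± 0.13 with no overlap (adjusted p 0.0694). The leg difference of Odc1 in the vehicle animals was 0.56. Pold1, the catalytic subunit of DNA polymerase delta, had 0.57 ± 0.09 in the Scriptaid animals and 0.05 in the vehicle animals, and Nuak1, a kinase related to AMPK, had 0.64 ± 0.10 and 0.13. A dimmer probe had 0.67 for Pold1 and 0.29 for Nuak1 in the Scriptaid animals. Both genes were chosen by their Scriptaid p, which favours a smaller vehicle value, and their difference between injections did not pass (adjusted p 0.907 each). Il6st, the gp130 signalling subunit of interleukin-6 type receptors, had 0.74 ± 0.12 in the Scriptaid animals. Tlr5, the receptor for bacterial flagellin, had 1.16 ± 0.19, and Tlr4, the receptor for lipopolysaccharide, 0.82 ± 0.18. In the vehicle animals Il6st had 0.39, Tlr5 1.07 and Tlr4 0.90. Of 18 measured genes on the Toll-like receptor list, 5 were higher and none lower at an unadjusted p under 0.05, against 8.44% and 5.99% of all genes, and none passed after adjustment. Its median was 0.21 in the Scriptaid animals and 0.33 in the vehicle animals. Of 19 macrophage markers 17 had a positive leg difference, against 55.6% of all genes. At that threshold 2 were higher, a share near the 8.44% of all genes, and none lower. The list median was 0.30, with 1.60 in animal 2 and -0.50 in animal 4, and it was 0.28 in the vehicle animals. The summed signal of the 17 markers with a value on every array of the comparison ranged between 12.3 and 34.4 in the dnHDAC4/5 legs. In the empty-vector legs it ranged between 11.5 and 29.2, and it was higher in the dnHDAC4/5 leg of 3 of 5 animals. The part of macrophage RNA in the receptor differences was not tested.

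Matrix, vesicle and transport genes were also among the leading higher genes. Scx, the transcription factor scleraxis of tendon cells, had a level of 2.96, 2.84, 2.4, 4.25 and 3.89 in the dnHDAC4/5 legs, against 1.48, 1.58, 1.5, 2.11 and 1.83 in the empty-vector legs. The leg difference was 1.57 ± 0.24 without overlap (adjusted p 0.0694). In the vehicle animals it was 1.11, and Scx was higher in all 5 of them. The other 12 measured tendon markers had none at an unadjusted p under 0.05, and the summed tendon signal, between 55.9 and 282 in the dnHDAC4/5 legs and between 60.9 and 78.7 in the empty-vector legs, was higher in 2 of 5 animals. Clec3b, the plasminogen-binding protein tetranectin, had 1.03 ± 0.14 with values between 0.65 and 1.52 (adjusted p 0.0694). Its vehicle leg difference was -0.09. Sytl2, a Rab27 effector of vesicle docking, had 1.06 ± 0.17 in the Scriptaid animals and 0.90 in the vehicle animals. Spns3, a membrane protein of the spinster transporter family, had a level of -1.78, -2.24, -2.49, -1.63 and -1.79 in the dnHDAC4/5 legs, against -3.09, -3.04, -3.09, -2.75 and -2.86 in the empty-vector legs, a leg difference of 0.98 ± 0.16 without overlap (adjusted p 0.0694). In the vehicle animals Spns3 had 0.59. Igfn1, a muscle protein with immunoglobulin-like and fibronectin domains, was not among the 15 but led the sarcomere list at 2.98 ± 0.55 in the Scriptaid animals (adjusted p 0.0941) and 2.90 in the vehicle animals.

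The 15 leading lower genes had leg differences between -1.84 and -0.52 and adjusted p between 0.0694 and 0.119, and their groups did not overlap for 6, against 0.725% of all genes, a count that the choice by p favours. In the vehicle animals 12 of the 15 had a negative mean difference. Of these, 7 had an unadjusted p under 0.05 in limma, against 4.75% of all genes lower at that threshold. The spread shared by both injections favours this count too. Mmd, a membrane protein of the progestin and adipoQ receptor family, had a level of 0.78, 0.66, 0.67, 0.41 and 1.04 in the dnHDAC4/5 legs, against 1.83, 1.89, 1.20, 1.47 and 1.90 in the empty-vector legs. All 5 dnHDAC4/5 values lay under all 5 empty-vector values, and the leg difference was -0.94 ± 0.12 (adjusted p 0.0694). A dimmer probe of the gene had a leg difference of -0.07. Cdyl, a chromodomain protein that binds repressive histone marks, had -0.93 ± 0.14 in its brighter probe and 0.09 in the other one. Scn3b, a sodium channel beta subunit, had -1.10 ± 0.19, and Mdga1, a glycoprotein of the cell surface, -0.68 ± 0.11. Apbb2, an adaptor that binds the amyloid precursor protein, had -0.86 ± 0.18 in its brightest probe, and its other probes had 0.21 and -0.09. Myoz3, a calsarcin of the fast-fibre Z-disc that binds calcineurin, had -0.52 ± 0.11 in the Scriptaid animals and -0.39 in the vehicle animals. Chrm1, a muscarinic receptor, had -1.69 ± 0.34, although just 1 of its 5 dnHDAC4/5 spots was well above background.

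Genes of calcium handling lay mainly on the lower side. Of 22 measured members 14 were lower, and 7 were lower and none higher at an unadjusted p under 0.05, against 5.99% and 8.44% of all genes. The list median was -0.07 in the Scriptaid animals and -0.23 in the vehicle animals, where 8 members were lower at that threshold. Hhatl, an acyltransferase-like protein of the reticulum, had a level of 3.20, 2.94, 3.62, 2.73 and 2.54 in the dnHDAC4/5 legs, against 3.88, 4.05, 3.77, 3.79 and 3.94 in the empty-vector legs, with no overlap and a leg difference of -0.88 ± 0.19 (adjusted p 0.126). Jph2 and Jph1, the junctophilins that hold the reticulum to the T-tubule, had -0.56 ± 0.14 and -0.45 ± 0.16. Hrc, a calcium-binding protein of the reticulum, had -0.83 ± 0.20 over 4 animals, Cacnb1, the beta subunit of the muscle calcium channel, -0.39 ± 0.11, and Ryr1, the calcium release channel, -0.27 ± 0.11. Ppapdc3, now named Plpp7 and located at the nuclear envelope, had -0.86 ± 0.18 in the Scriptaid animals and -0.99 in the vehicle animals. In glycogen metabolism, Stbd1, which tethers glycogen to membranes, had 1.48 ± 0.38 over the 3 animals whose spots were kept, while the glycogen-targeting subunit Ppp1r3c had -0.71 ± 0.19. In the vehicle animals Stbd1 had 1.23 and Ppp1r3c -0.70.

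Neither Hdac4 nor Hdac5, the genes whose mutants the vectors carry, passed the test. Hdac4 had a level of 0.50, 0.96, 1.22, 1.94 and 1.61 in the dnHDAC4/5 legs, against 1.01, 1.21, 0.97, 1.15 and 0.40 in the empty-vector legs, and the difference was 0.30 ± 0.23 (adjusted p 0.598). Hdac5 had 3.38, 3.30 and 3.70 in the dnHDAC4/5 legs of animals 1 to 3, against 3.26, 3.60 and 3.63 in their empty-vector legs. The other dnHDAC4/5 spots of Hdac5 were left out as outliers, and the difference was -0.03 ± 0.19 (adjusted p 0.958). With outlier spots kept it was -0.64 (adjusted p 0.353). Whether the array probes lie in the part of the transcripts that the vectors carry was not tested, so these values do not check the labels. On the list of class IIa HDAC and MEF2 genes the median was 0. Its members with an unadjusted p under 0.05 were Sik1, a kinase that phosphorylates these deacetylases, at 0.76 ± 0.19, Camk2d, another such kinase, at 0.56 ± 0.14, Mef2a at 0.51 ± 0.13 and Hrc, which also stands on the calcium list. The value of Camk2d is that of its brightest probe, and its other probes had 0.08, -0.16 and -0.22.

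Markers of other cell types and fibre types were examined in the same legs. Of 17 measured endothelial markers 14 were lower, 6 of them at an unadjusted p under 0.05, against 5.99% of all genes, none passed after adjustment, and the median was -0.15. They included Apln, the ligand apelin, at -0.70 ± 0.20 and Vwf, von Willebrand factor, at -0.29 ± 0.11. Apln had -0.61 in the vehicle animals. Of 4 defining endothelial markers 2 were measured, Pecam1 at -0.13 ± 0.12 and Kdr at -0.09 ± 0.11, and neither reached that threshold. The summed signal of 16 endothelial markers had a median of 74.8 in the dnHDAC4/5 legs and 82.0 in the empty-vector legs and was higher in 1 of 5 animals. Of 8 measured T and NK cell markers 7 were lower, 3 at that threshold and none after adjustment, against the same 5.99%. The 3 were Cd4, Cd247 and Cd3e, and only 1 of 5 defining markers, Cd3e, was measured. Cd4 was above background on 3 dnHDAC4/5 and 2 empty-vector arrays. Cd247 had a leg difference of -2.83 in animal 5 and 0.11 in animal 3, and Cd3e was higher in 2 of 5 animals. Slow-fibre genes had none of 11 and fast-fibre genes none of 13 at that threshold, with medians of 0.15 and 0.11. Schwann cell and red blood cell markers also had none. Their medians differed between animals, with that of the red blood cell list at 2.72 in animal 2 and between -0.44 and 0.69 in the others. Animal 2 also had the highest median of the tendon (1.81), macrophage (1.60), cell cycle (1.26) and fibroblast and matrix (0.96) lists.

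The last comparison asked where the vector effect itself differed between Scriptaid and vehicle animals. No gene passed (limma, smallest adjusted p 0.875), and 713 genes (4.89%) had an unadjusted p under 0.05, 440 with a higher leg difference in the Scriptaid animals (3.02%) and 273 with a lower one (1.87%). The 4 genes of smallest p with a higher leg difference in the Scriptaid animals were Clec3b, N4bp2l1, Il17re and Zmpste24, and the 4 in the other direction were Nr1i3, Pif1, Adam6b and Alg13. Clec3b had a leg difference of 1.03 in the Scriptaid animals and -0.09 in the vehicle animals, a difference of 1.12 ± 0.20 (SE; unadjusted p 0.000215). Pif1, a DNA helicase, had leg differences of -1.68, -0.39, -2.51, -1.84 and -2.77 in the Scriptaid animals and values between -0.21 and 0.17 in the vehicle animals. Nr1i3, the nuclear receptor CAR that governs drug metabolism, had -0.69, -1.76, -0.79, -1.73 and -1.20 in the Scriptaid animals, against 0.43, 0.60, 0.17, 1.62 and 0.19 in the vehicle animals. The ranges of Pif1 and of Nr1i3 did not overlap between injections, and neither difference passed the adjustment over all genes (adjusted p 0.907 and 0.875).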

How the data were processed

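Labelled cRNA from 100 ng of EDL RNA was hybridised to 1-colour Agilent arrays, 20 in all, on 5 slides of 4. Per the labels and file headers, the deposited intensity values are processed signals of Agilent Feature Extraction 9.5.1.1, with background already subtracted. A deposited value table holds those signals as a ratio to a constant for each array, found by setting it against the scanner files, and served as an alternative. Here log2 processed signal was scaled to each array's 75th percentile over 43379 non-control spots. Interior spots (columns 1 to 77, rows 11 to 522) were kept. Spots marked as outliers by the scanner software were left out, 12539 over the 20 arrays, and counted as not above background. A probe had to be well above background on at least 5 arrays with at least 3 leg pairs in each injection. Where several probes named a gene, the brightest on average was used. Gene names are those of the array design, and 11445 of 14591 matched a current RefSeq symbol by accession.

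Leg differences of all 10 animals were fitted with limma 3.58.1 in R 4.3.3, with 1 mean for each injection and Benjamini-Hochberg adjustment over all genes, after tests on simulated data. Legs are paired by the labelled animal. Deviations of the legs of an animal from their group means correlated at 0.22 to 0.41 in the Scriptaid animals, and at 0.02 to 0.43 in the vehicle animals. Gene lists (42) are described by counts and medians only. Named genes are the called genes, the 15 higher and 15 lower genes of smallest p whose 5 leg differences shared a sign and that stood well above background on all 5 arrays of the higher group (clone and locus names passed over), Hdac4 and Hdac5, up to 4 members of each list of smallest p, and 4 genes in each direction for the difference between injections. Further list members with values (Dnajb5, Jph1, Ryr1, Ces1f) were chosen after their values were seen. Values of the measured defining adipocyte and endothelial markers are also given. The genes and lists were chosen with earlier results of these data known. No column of values without a sample was present.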

Additional observations from a re-analysis of the deposited data

Results flagged for a closer look

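For 2 of the leading lower genes 1 animal stood apart from the other 4 of its group. The leg difference of Scn3b was -0.20 in Scriptaid animal 3 and between -1.44 and -1.15 in the others. The leg difference of Chrm1 was -0.21 in Scriptaid animal 2 and between -2.34 and -1.81 in the others. Chance marks about 1 in 20 groups in this way.

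For 3 of the genes named for the difference between injections, every Scriptaid animal and every vehicle animal had leg differences of opposite sign. The Scriptaid minus vehicle difference was -1.84 for Nr1i3, 1.22 for Il17re, which encodes a subunit of the interleukin-17C receptor, and 0.72 for Zmpste24, the protease that matures lamin A. All 3 were named because of a small p for this very difference, and none passed after adjustment over all genes (adjusted p 0.875 each). Utrn, named from the list of neuromuscular junction and denervation genes, had the same pattern, with mean leg differences of 0.35 and -0.12. Its difference between injections did not pass (limma, adjusted p 0.907), and its dimmer probes had 0.05, 0.08 and -0.23 in the Scriptaid animals. The share of all genes with this pattern was not counted.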

How the results depend on the processing

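In the Scriptaid animals 1 gene was called. There were 3 called without the pairing of legs (no replicate block: Chrna9, Ces2c and Pla2g5), 250 with edge spots included, 0 with a deeper edge zone left out, where Pla2g5 was not tested, 5 with normexp background correction, 8 with the series value table, 2 with the Scriptaid animals alone and 3 with the slide as a further block. Leaving out an animal of either injection gave between 0 and 5 calls, with 0 without Scriptaid animal 1, 4 or 5. At the deeper zone 1678 genes had an unadjusted p under 0.05 in limma. In the vehicle animals, where none was called, there was 1 without the filter on dim probes, 2 with the slide block, and 0 to 1 when an animal was left out (Chrna9 without vehicle animal 5). For the difference between injections, 19 genes were called with edge spots included and none otherwise. Among the named genes the replicate block changed the calls of Chrna9 and Ces2c and no other.

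The named genes kept their sign under the alternatives with few exceptions, although the sizes of several moved. Over the settings Pla2g5 lay between 3.25 and 4.32 and Scx between 1.42 and 1.73. Wider ranges were those of Chrna9 (3.17 to 6.28), Ces2c (1.41 to 3.37), Chrng (0.15 to 1.13) and Dnajb1 (0.27 to 0.93). Pold1 lay between 0.13 and 0.62, Myoz3 between -0.58 and -0.15, and Chrm1 between -2.06 and -0.31. The exceptions in sign follow. Hdac5 lay between -0.12 and 0.10 when a Scriptaid animal was left out, with 0.10 without animal 2, and was -0.64 with outlier spots kept. With edge spots included Zmpste24 had -0.43, Tagln -0.05 and Thy1 -0.38. With normexp Cebpd had -0.28 and Cd4 0.05. With the deeper zone Camk2d had -0.16 and Dfna5 0.86, and with the mean of probes Dfna5 had 0.24. The values at the deeper zone equal those of another probe of each gene. The probes of Dfna5 disagreed, at -0.38 for the brighter and 0.86 for the dimmer one. Rgs5 had 0.03 with outlier spots kept. For Hdac5, Zmpste24, Tagln, Thy1, Cebpd, Cd4 and Rgs5 the cause was not tested. The median of all genes in the Scriptaid animals lay between -0.03 and 0.10 over the settings. The medians of the chaperone, immediate early, p53 and adipocyte lists were positive and that of the endothelial list negative in all 21 settings.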
